A study of Mus musculus with 6 samples.

Results

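The genes described here are 10 components of planar cell polarity and non-canonical Wnt signalling, Vangl1, Vangl2, Celsr1, Celsr2, Prickle1, Prickle2, Ror2, Ryk, Dvl2 and Daam1. They were chosen by name from the 17189 genes of the deposited count table, and all 10 have a row there. Ureteric bud cells, the branching epithelium that becomes the collecting system of the kidney, of mouse embryos at E16.5 were isolated by FACS and their mRNA was sequenced. The 3 cKO libraries came from embryos with a Hoxb7Cre-GFP transgene and both Ash2l alleles floxed (Hoxb7Cre-GFP+, Ash2l F/F). The 3 control libraries came from embryos with the same transgene and 1 floxed Ash2l allele (Hoxb7Cre-GFP+, Ash2l F/+), so both groups carried the Cre and at least 1 floxed allele, and neither group was treated. The Hoxb7 promoter drives the Cre in the ureteric lineage. The ASH2L protein is shared by the enzyme complexes of the MLL and SET1 family, which write H3K4 methylation. Whether each library was made from a single embryo or from pooled embryos is not stated.

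Planar cell polarity aligns cells within the plane of an epithelium. At cell borders the transmembrane VANGL proteins with their cytoplasmic PRICKLE partners face Frizzled receptors with Dishevelled on the neighbouring cell, and the seven-pass CELSR cadherins bridge the junction. Non-canonical Wnt ligands such as WNT5A act through the receptors ROR2 and RYK and through Dishevelled and the formin DAAM1 on the actin cytoskeleton. In the mouse kidney this system is known for orienting cell divisions and cell intercalation as tubules elongate and for its part in ureteric branching.

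Library totals were 9620235 to 9860475 counts in cKO and 10359475 to 10538314 counts in controls. The targeted gene Ash2l had 451, 292 and 214 counts in cKO replicates 1, 2 and 3, against 1933, 1853 and 1624 counts in control replicates 1, 2 and 3 (log2 fold change -2.43, SE 0.284, edgeR adjusted p = 0.00786). One library stood apart. Of 11738 genes that had over 10 counts in each of the other 5 libraries, 1453 (12.4%) were at 0 in cKO replicate 3, and the same measure found no more than 3 genes when taken for another library. Tests of the members are therefore given with and without it. Reads of the Y-linked genes Ddx3y, Uty and Kdm5d were at 0 in every cKO library and present in every control library, while Eif2s3y had 504 counts in cKO replicate 3 and 0 in cKO replicates 1 and 2, against 439 to 815 counts in controls. Sex and genotype of the embryos cannot be told apart by this comparison. The 16 listed ureteric epithelium markers summed to 6463 to 7447 CPM (counts scaled to a common library size with TMM factors) in cKO and 11149 to 12409 CPM in controls. The 10 measured stroma markers summed to 2.19 to 25.8 CPM in cKO and 11.1 to 27.0 CPM in controls, with the defining gene Foxd1 at 0 in every cKO library and at 0, 0 and 5 counts in controls. The 11 measured nephron epithelium and podocyte markers summed to 46.5 to 75.004 CPM in cKO and 12.2 to 20.05 CPM in controls. The 8 nephron progenitor markers summed to 340.5 to 480.3 CPM in cKO and 643 to 760.1 CPM in controls, most of it from Capn6. Of the 5 tested progenitor markers, every cKO library lay below every control for 2 and above for 1, Cited1. The 7 endothelium markers summed to 6.63 to 29.5 CPM in cKO and 0.784 to 4.75 CPM in controls. In cKO replicate 3, which gave the highest nephron epithelium and endothelium sums, 8 and 5 markers of these lists were at 0. Only 1 endothelium marker was tested with 6 libraries (log2 fold change -1.66). The 8 leukocyte markers summed to 57.5 to 108 CPM in cKO and 45.1 to 89.2 CPM in controls, and the 7 measured erythroid markers to 0 to 36.4 CPM in cKO and 0.686, 1.05 and 403 CPM in controls. The lowest cKO sums of the stroma and erythroid lists were also those of cKO replicate 3, with 9 and 7 markers at 0. The part of these markers in the results that follow was not tested, and in bulk RNA fewer cells of a type and less RNA per cell cannot be told apart.

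With all 6 libraries none of the 10 genes passed the test. Without cKO replicate 3, the receptor gene Ror2, the Dishevelled gene Dvl2 and the core transmembrane gene Vangl2 fell in cKO, by 1.90, 1.14 and 0.63 on the log2 scale. In each of these 3 genes every cKO library, replicate 3 included, lay below every control library, as for 20.7% of all tested genes. For Ror2 the value of replicate 3 was a 0, 1 of the 1453 described above. The other 7 genes, among them Vangl1, both Celsr genes, Prickle1, Ryk and Daam1, were not called in either test. Prickle2, the lowest of the 10, had too few counts to be tested with 6 libraries.

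In that 6-library test (edgeR quasi-likelihood, Benjamini-Hochberg adjustment over 13047 genes) 0 of 9 tested members rose or fell, while 3.59% of all tested genes fell and 3.52% rose. At an unadjusted p under 0.05, Dvl2 and Vangl2 were lower, 2 of 9 members against 11.1% of all tested genes. DESeq2 called the same 2 genes down (adjusted p = 0.00715 for Dvl2 and 0.0311 for Vangl2), against 7.83% of the genes with an adjusted p, and no member up, against 7.9%. With limma-voom and library weights, Ror2, Dvl2 and Vangl2 were called down (adjusted p = 0.0429, 0.0189 and 0.0215), against 13.5% of all genes, and no member up, against 12.3%. Without cKO replicate 3, edgeR called 3 of 10 members down, against 14.9% of 13660 tested genes, and 0 of 10 up, against 13.7%. Groups did not overlap for 3 of 9 tested members, all lower in cKO, against 20.7% of all tested genes lower and 16.7% higher in that way. With so few members these counts do not set them apart from other genes.

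**Figure D1:**
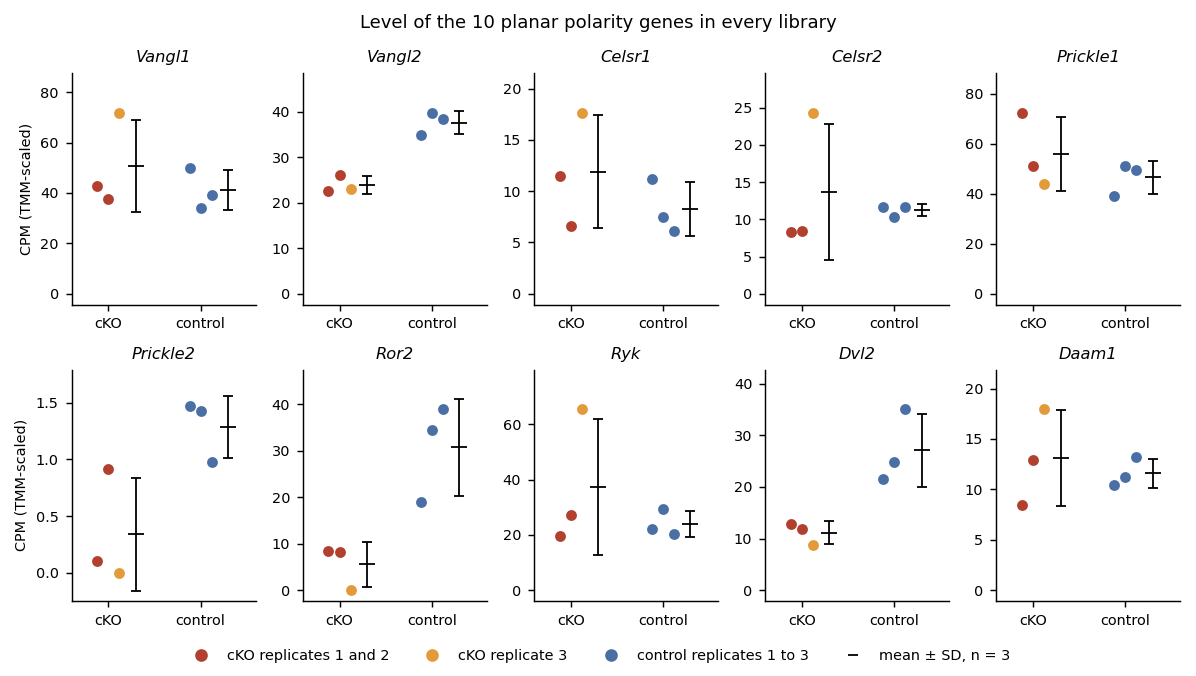
CPM of each of the 10 genes (vertical axes, 1 scale per gene) in the cKO libraries, left, and the control libraries, right; points are libraries, and bars are mean ± SD over 3 libraries. The cKO points of Vangl2, Ror2 and Dvl2 all lie below the control points, and cKO replicate 3 is the highest of the 6 libraries for Vangl1, Celsr1, Celsr2, Ryk and Daam1.

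Among the receptors, Ror2 (Entrez Gene 26564), a receptor tyrosine kinase that binds WNT5A, had 8.47, 8.11 and 0 CPM in cKO replicates 1, 2 and 3, against 18.9, 34.4 and 38.8 CPM in control replicates 1, 2 and 3. The groups did not overlap, and the control libraries themselves spanned 193 to 398 counts. In cKO replicate 3 Ror2 was 1 of the 1453 genes at 0, where a count of 0 allows up to 0.299 CPM (3 counts, counting error only), while cKO replicates 1 and 2 had 83 and 80 counts. With 6 libraries the log2 fold change of Ror2 was -2.47 (SE 1.27, edgeR adjusted p = 0.312), and it was -1.90 (SE 0.312, adjusted p = 0.000566) without cKO replicate 3. The level of Ror2 in cKO was therefore below control also in the libraries where it was detected.

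Ryk (Entrez Gene 20187), an atypical Wnt receptor with an inactive kinase domain, had 19.7, 27.1 and 65.4 CPM in cKO, against 22.2, 29.4 and 20.2 CPM in controls. Replicates 1 and 2 of cKO lay within or just below the control range, and replicate 3 lay above it. The difference was 0.65 on the log2 scale (SE 0.469, edgeR adjusted p = 0.483) with 6 libraries and -0.04 (SE 0.242, adjusted p = 0.92) without cKO replicate 3, so that 1 library decided its direction. The paralog Ror1, given here after its values were seen, had 51.3, 58.7 and 30.6 CPM in cKO, against 55.1, 60.4 and 72.3 CPM in controls, and was not called (log2 fold change -0.42, edgeR adjusted p = 0.42; -0.20, adjusted p = 0.407 without cKO replicate 3).

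Among the transducers, Dvl2 (Entrez Gene 13543), which relays Frizzled signals to both Wnt branches, had 12.9, 11.9 and 8.67 CPM in cKO, against 21.5, 24.9 and 35.0 CPM in controls. All cKO libraries were below all controls, and Dvl2 had the smallest p of the 10 genes with 6 libraries. The difference was -1.29 on the log2 scale (SE 0.334, edgeR adjusted p = 0.0701) with 6 libraries and -1.14 (SE 0.264, adjusted p = 0.00564) without cKO replicate 3. In the GENCODE M21 annotation (GRCm38), 19.3% of the exon bases of Dvl2 overlap exons of Acadvl, a mitochondrial fatty acid enzyme gene on the opposite strand. The library kit keeps strand, per the labels' protocols, but whether the counting used it is not stated, so reads of the overlap may not have been kept apart. Acadvl itself had 1510, 1538 and 2067 counts in cKO, against 1392, 1493 and 1200 counts in controls, and was not called (log2 fold change 0.38, edgeR adjusted p = 0.197; 0.22, adjusted p = 0.17 without cKO replicate 3). The other Dishevelled genes, Dvl1 (0.52, edgeR adjusted p = 0.66) and Dvl3 (-0.25, adjusted p = 0.801, named after its values were seen), were not called either, nor were they without cKO replicate 3, where Dvl3 changed sign (0.35 and 0.11, adjusted p = 0.564 and 0.748).

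Daam1 (Entrez Gene 208846), the formin that links Dishevelled to actin assembly, had 8.47, 12.9 and 17.9 CPM in cKO, against 10.4, 11.2 and 13.2 CPM in controls. The cKO libraries lay on both sides of the controls. The difference was 0.18 on the log2 scale (SE 0.427, edgeR adjusted p = 0.856) with 6 libraries and -0.13 (SE 0.31, adjusted p = 0.796) without cKO replicate 3.

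Of the core transmembrane pair, Vangl2 (Entrez Gene 93840), mutated in looptail mice with open neural tubes, had 22.6, 26.2 and 23.0 CPM in cKO, against 34.8, 39.7 and 38.4 CPM in controls. The groups did not overlap, and the spread was narrow, at 23.9 ± 1.93 CPM in cKO and 37.6 ± 2.54 CPM in controls (SD, n = 3 each). Vangl2 was the member whose fold change moved least without the library that stood apart: it differed by -0.65 on the log2 scale (SE 0.2, edgeR adjusted p = 0.108) with 6 libraries and -0.63 (SE 0.188, adjusted p = 0.022) without cKO replicate 3. Vangl1 (Entrez Gene 229658), its paralog, had 42.8, 37.7 and 71.7 CPM in cKO, against 49.7, 34.1 and 39.1 CPM in controls. It was not called with 6 libraries (log2 fold change 0.31, SE 0.296, edgeR adjusted p = 0.612) or without cKO replicate 3 (-0.03, SE 0.194, adjusted p = 0.918).

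The CELSR genes, which encode the cadherins that join neighbouring cells, were low and not called. Celsr1 (Entrez Gene 12614) had 11.5, 6.59 and 17.6 CPM in cKO, against 11.2, 7.51 and 6.15 CPM in controls. Celsr2 (Entrez Gene 53883) had 8.36, 8.41 and 24.3 CPM in cKO, against 11.7, 10.3 and 11.7 CPM in controls. For both genes the highest value was that of cKO replicate 3. Celsr1 had a log2 fold change of 0.53 (SE 0.541, edgeR adjusted p = 0.642), and 0.12 without that library (adjusted p = 0.848). Celsr2 had a log2 fold change of 0.29 (SE 0.536, adjusted p = 0.808), and -0.43 without that library (SE 0.303, adjusted p = 0.323), where both remaining cKO libraries were below the controls.

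Of the cytoplasmic VANGL partners, Prickle1 (Entrez Gene 106042) had 72.3, 51.3 and 43.9 CPM in cKO, against 39.01, 51.1 and 49.7 CPM in controls, with overlapping groups. It differed by 0.26 on the log2 scale (SE 0.236, edgeR adjusted p = 0.589) with 6 libraries and by 0.40 (SE 0.187, adjusted p = 0.131) without cKO replicate 3. Prickle2 (Entrez Gene 243548) had 1, 9 and 0 counts in cKO, against 15, 15 and 10 counts in controls. Every cKO library was below every control, at levels where few reads decide the order. It did not pass the filter on low counts with 6 libraries, and it was tested but not called without cKO replicate 3 (log2 fold change -1.33, SE 1.06, edgeR adjusted p = 0.381).

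**Figure D2:**
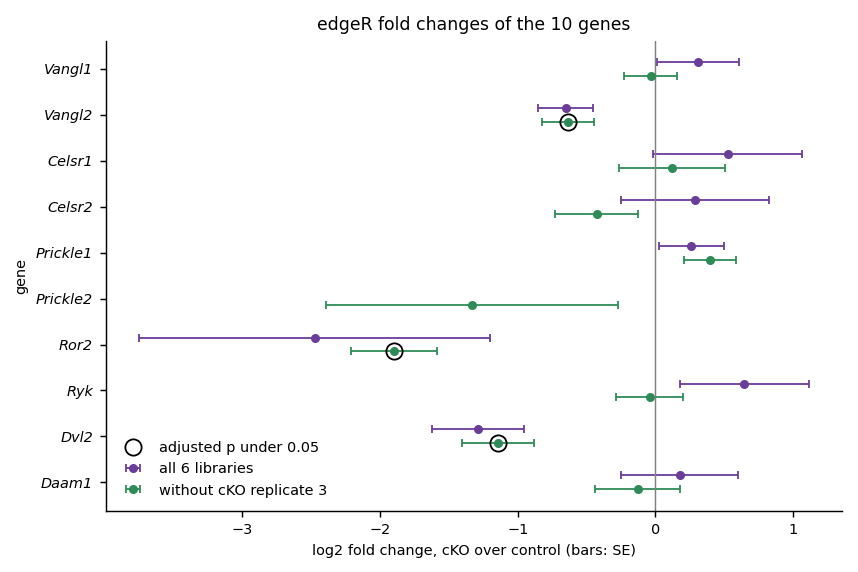
Log2 fold change of cKO over control (horizontal axis, bars are SE) of the 10 genes with all 6 libraries and without cKO replicate 3; rings mark an adjusted p under 0.05. Ror2, Dvl2 and Vangl2 stay at -1.90, -1.14 and -0.63 and are called without that library, while Celsr2, Ryk, Daam1 and Vangl1 change sign.

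The library that stood apart held an extreme value for most members. It was the highest of the 6 libraries for 5 members and the lowest for 3 (Ror2, Dvl2 and Prickle2), and only Vangl2 and Prickle1 had it inside the range. Over all tested genes, cKO replicate 3 was the highest library for 27.9% and the lowest for 43.7%. The SE of the log2 fold change without it was smaller for each of the 9 members tested both ways, most of all for Ror2 (0.312 against 1.27 with it). When any other library was left out, no member was called, and for Ror2, Dvl2 and Vangl2 the highest adjusted p was 0.586, 0.319 and 0.362.

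Promoter sequence is shown for the 3 members called without cKO replicate 3 and, beside Ror2, for the receptor gene Ryk, which was not called. These are the 250 bases before the annotated start, 5′ to 3′ on the gene's strand, from RefSeq on GRCm38.p6, matched by gene identifier, and capitals mark CG dinucleotides, the bases of CpG-rich promoters. The windows are chr13:53286125-53286374 on the minus strand for Ror2, chr11:70000342-70000591 on the plus strand for Dvl2, chr1:172027296-172027545 on the minus strand for Vangl2 and chr9:102834670-102834919 on the plus strand for Ryk. The counts were made on GRCm39, per the submitters' processing notes, so these positions are not those of the deposited files.
Ror2: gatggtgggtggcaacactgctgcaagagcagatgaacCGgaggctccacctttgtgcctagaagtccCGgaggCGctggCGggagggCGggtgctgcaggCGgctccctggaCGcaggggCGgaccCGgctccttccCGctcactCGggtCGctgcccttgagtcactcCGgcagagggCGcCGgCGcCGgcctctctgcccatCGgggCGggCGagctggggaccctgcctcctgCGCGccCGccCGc
Dvl2: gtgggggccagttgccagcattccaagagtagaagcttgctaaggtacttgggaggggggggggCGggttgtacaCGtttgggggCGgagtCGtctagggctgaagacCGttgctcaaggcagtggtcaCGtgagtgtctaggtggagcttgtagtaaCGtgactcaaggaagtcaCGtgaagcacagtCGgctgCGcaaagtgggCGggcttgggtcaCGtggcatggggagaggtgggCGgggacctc
Vangl2: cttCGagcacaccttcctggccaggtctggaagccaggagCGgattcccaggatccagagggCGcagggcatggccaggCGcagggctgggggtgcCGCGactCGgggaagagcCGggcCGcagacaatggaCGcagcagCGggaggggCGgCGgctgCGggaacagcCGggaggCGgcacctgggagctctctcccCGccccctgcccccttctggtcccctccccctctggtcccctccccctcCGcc
Ryk: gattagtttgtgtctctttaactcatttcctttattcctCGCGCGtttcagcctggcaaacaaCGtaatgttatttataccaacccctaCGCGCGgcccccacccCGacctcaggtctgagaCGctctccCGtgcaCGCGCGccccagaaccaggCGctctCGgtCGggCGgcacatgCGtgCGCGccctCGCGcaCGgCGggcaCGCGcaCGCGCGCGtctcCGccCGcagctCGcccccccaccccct

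These windows held 24 CG dinucleotides for Ror2, 13 for Dvl2, 18 for Vangl2 and 33 for Ryk, against a median of 6 over 32851 promoter windows of the same length. Windows with at least as many made up 12.0%, 31.5%, 21.7% and 4.03% of all windows. Among the 8 members found in the promoter table, the first-listed windows of Prickle1 and Celsr2, which were not called, held 34 and 32. On either strand, the motif GGGCGG, the core of a GC box, was found 4 times for Ror2, 4 times for Dvl2, 2 times for Vangl2 and 2 times for Ryk, and at least 1 time in 32.7% of all windows. It contains a CG dinucleotide, so the counts overlap. TATAAA was found only in the Ryk window among these 4 and in 12.4% of all windows, and CCAAT in none of the 4 and in 33.8% of all windows. The RNA data do not measure binding or histone marks at these windows.

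On the length-scaled FPKM scale, where levels of different genes can be compared, the order of the members differed between the groups. In cKO, Ryk (11.7 ± 7.75 FPKM) and Vangl1 (7.85 ± 2.89 FPKM) were the highest, followed by Prickle1 (4.91 ± 1.21), Dvl2 (3.80 ± 0.708), Vangl2 (2.93 ± 0.271), Daam1 (1.79 ± 0.668), Ror2 (1.40 ± 1.21), Celsr2 (1.30 ± 0.885), Celsr1 (1.02 ± 0.48) and Prickle2 (0.0365 ± 0.0542; SD, n = 3 for each). In controls, Dvl2 (8.999 ± 2.26 FPKM), Ror2 (7.60 ± 2.57), Ryk (7.23 ± 1.55) and Vangl1 (6.15 ± 1.17) were the highest, followed by Vangl2 (4.47 ± 0.326), Prickle1 (3.99 ± 0.579), Daam1 (1.54 ± 0.178), Celsr2 (1.03 ± 0.065), Celsr1 (0.691 ± 0.218) and Prickle2 (0.135 ± 0.0296). Neighbours overlapped in range in cKO except Vangl2 and Daam1, and Celsr1 and Prickle2. In controls the first 4 genes overlapped from each to the next, as did Vangl2 and Prickle1, and the other neighbours did not overlap. Over cKO replicates 1 and 2 alone, the Ryk mean was 7.24 FPKM and the Celsr2 mean 0.791 FPKM, each over 1.5 times lower than with replicate 3. The Ror2 mean over these libraries was 2.10 FPKM and the Daam1 mean 1.45 FPKM, so that these neighbours changed places, and the other members kept their order.

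Within paralog pairs, the share of the summed FPKM held by Vangl1 was 70.5%, 64.6% and 79.7% in cKO, against 64.3%, 52.0% and 56.3% in controls. The means were 71.6% ± 7.65 in cKO and 57.6% ± 6.25 in controls (SD, n = 3 each), a difference of 14.0 percentage points with groups that only just did not overlap. In an exact two-sided permutation test p was 0.1, the smallest that 3 against 3 libraries allow, and 0.15 after adjustment over the 3 pairs. The cKO mean without replicate 3 was 67.5%. Prickle1 held 99.2% ± 1.18 of its pair in cKO and 96.7% ± 1.03 in controls (exact p = 0.1, adjusted 0.15), and 98.9% in cKO without replicate 3. Few reads decide this difference, since Prickle2 had 1, 9 and 0 counts in cKO and 15, 15 and 10 counts in controls. Celsr1 held 45.6% ± 8.68 of its pair in cKO and 39.5% ± 7.12 in controls, with overlapping groups (exact p = 0.5, adjusted 0.5), and 48.5% in cKO without replicate 3.

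**Figure D3:**
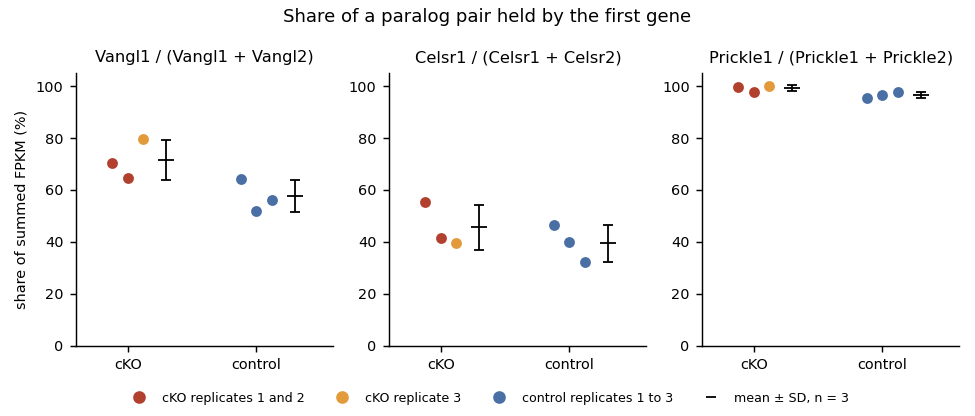
Share of the summed FPKM of a paralog pair held by its first gene (vertical axis, percent, from 0) in the cKO libraries, left, and the control libraries, right; points are libraries, and bars are mean ± SD over 3 libraries. Vangl1 held 64.6% to 79.7% of its pair in cKO and 52.0% to 64.3% in controls, and Prickle1 held nearly all of its pair in both groups.

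Other genes of the pathway were read from 7 lists ordered by role, 82 genes of which 72 were tested with 6 libraries. Of these, 4 fell and 1 rose, against 3.59% and 3.52% of all tested genes. Without cKO replicate 3, 19 of 76 fell and 4 rose, against 14.9% and 13.7% of all tested genes. The median log2 fold change over the lists was -0.20 with 6 libraries and -0.14 without cKO replicate 3, against -0.04 and 0.01 over all tested genes.

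Of 6 tested non-canonical Wnt ligands, 2 fell (3.59% of all tested genes fell) and 5 had a negative log2 fold change (52.3% of all tested genes), with a median of -0.81. In the test without cKO replicate 3, 3 of 6 fell, against 14.9% of all tested genes. Wnt11 and Wnt9b also stand in the list of ureteric epithelium markers, where all 16 genes had a negative log2 fold change with 6 libraries (median -0.71). Wnt4 (-0.14, edgeR adjusted p = 0.756) and Wnt7b (0.27, adjusted p = 0.408), named after their values were seen, were not called. Wnt11, made at the ureteric tip, had 356, 372 and 429 CPM in cKO, against 1186, 1176 and 1321 CPM in controls, and kept its call without each library in turn (highest edgeR adjusted p = 0.0317). Wnt5a, the ligand of ROR2, had 24.4, 21.9 and 16.9 CPM in cKO, against 43.9, 37.2 and 47.1 CPM in controls. It fell by 1.02 on the log2 scale (SE 0.234, edgeR adjusted p = 0.0497), and by 0.90 without cKO replicate 3 (adjusted p = 0.00341). Its call was lost when any other library was left out (highest adjusted p = 0.216). Wnt5b, a close paralog of Wnt5a, had 0.408, 2.13 and 0 CPM in cKO, against 21.9, 10.7 and 18.1 CPM in controls. It was not called with 6 libraries (log2 fold change -4.30, SE 1.31, edgeR adjusted p = 0.106) and fell by 3.73 without cKO replicate 3 (adjusted p = 0.000362). Wnt9b, a ureteric ligand known in mice for tubule polarity, had 44.4, 55.9 and 42.2 CPM in cKO, against 57.1, 92.8 and 66.5 CPM in controls, and was not called in either test (edgeR adjusted p = 0.179 and 0.0646).

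Among 15 tested receptors and co-receptors the median was -0.61, 1 gene fell and 0 rose, against 3.59% and 3.52% of all tested genes. The numbers without cKO replicate 3 were 7 and 1, against 14.9% and 13.7%. Fzd4, a Frizzled receptor gene, had 87.5, 70.1 and 48.3 CPM in cKO, against 131, 136 and 132 CPM in controls (log2 fold change -0.96, SE 0.216, edgeR adjusted p = 0.0492), and its call was lost in 4 of the 6 tests that each left out 1 library (highest adjusted p = 0.176). Fzd6, a Frizzled gene of planar polarity in mouse skin and hair, had 24.2, 9.94 and 16.4 CPM in cKO, against 31.3, 35.4 and 46.9 CPM in controls. Fzd6 and Fzd7 were not called with 6 libraries (edgeR adjusted p = 0.121 and 0.136) and fell by 1.16 and 1.18 without cKO replicate 3 (adjusted p = 0.023 and 0.0065). The others that fell without it, named after their values were seen, were Fzd2, Fzd8, Fzd9 and Ptk7, and the gene that rose was Mcam, which encodes a cell adhesion molecule (1.29, adjusted p = 0.0188). Ptk7, a pseudokinase co-receptor required for planar polarity in mice, had 126, 129 and 33.7 CPM in cKO, against 166, 196 and 226 CPM in controls, and fell by 0.63 without cKO replicate 3 (edgeR adjusted p = 0.00285).

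**Figure D4:**
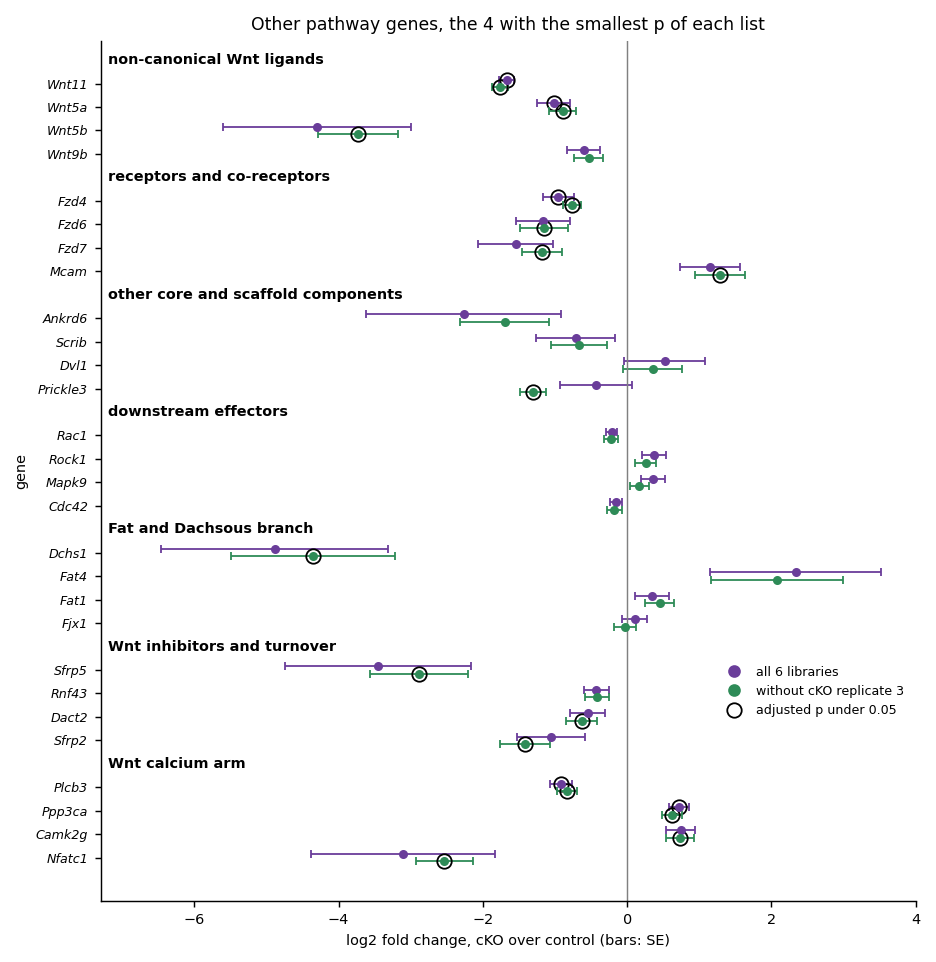
Log2 fold change of cKO over control (horizontal axis, bars are SE) of the 4 genes with the smallest p in each of 7 pathway lists, with all 6 libraries and without cKO replicate 3; rings mark an adjusted p under 0.05. Wnt11, Wnt5a, Fzd4, Plcb3 and Ppp3ca are ringed in both tests, and the 4 downstream effectors shown lie close to 0 in both.

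Of 7 tested other core and scaffold genes none was called with 6 libraries by edgeR. At an unadjusted p under 0.05, 0 were lower or higher, against 11.1% and 11.9% of all tested genes. Without cKO replicate 3, Prickle3 fell by 1.30 (SE 0.181, edgeR adjusted p = 0.000159): it had 20.7, 19.5 and 68.6 CPM in cKO, against 46.9, 52.0 and 48.6 CPM in controls, so the excluded library lay on the other side of the controls. Ankrd6, a homologue of fly diego, and Scrib, an apicobasal polarity scaffold, had log2 fold changes of -2.27 and -0.71 with 6 libraries (edgeR adjusted p = 0.382 and 0.511) and of -1.70 and -0.67 without cKO replicate 3 (adjusted p = 0.0551 and 0.219). Of 18 tested downstream effectors none was called with 6 libraries by edgeR. At an unadjusted p under 0.05, 1 was lower and 0 were higher, against 11.1% and 11.9% of all tested genes. The GTPase genes Rac1 (-0.22, SE 0.0784) and Cdc42 (-0.15, SE 0.0796) and the kinase genes Rock1 (0.38, SE 0.166) and Mapk9 (0.36, SE 0.17) had small log2 fold changes with 6 libraries. They were -0.23, -0.18, 0.25 and 0.17 without cKO replicate 3, and none of these genes was called by edgeR in either test. DESeq2 with 6 libraries called Rac1 down (adjusted p = 0.0304). In the test without cKO replicate 3, 1 of 19 effectors fell, against 14.9% of all tested genes. It was the non-muscle myosin gene Myh9 (-0.78, edgeR adjusted p = 0.0335), named after its values were seen. Myh9 had 14.9, 15.4 and 40.9 CPM in cKO, against 19.6, 31.9 and 26.3 CPM in controls. The excluded library thus lay above the controls, and with 6 libraries Myh9 was not called (-0.13, edgeR adjusted p = 0.908).

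In the Fat and Dachsous branch, a parallel polarity system of giant cadherins, none of 4 tested genes was called with 6 libraries by edgeR. At an unadjusted p under 0.05, 1 was lower and 0 were higher, against 11.1% and 11.9% of all tested genes. Dchs1 had 0, 3 and 0 counts in cKO, against 58, 19 and 26 counts in controls, and was called down without cKO replicate 3 (edgeR adjusted p = 0.0114). Its fitted fold change rests on cKO counts at or near 0. Fat4, the DCHS1 receptor, had 64, 26 and 73 counts in cKO, against 27, 2 and 4 counts in controls, and was not called (edgeR adjusted p = 0.303). Of 8 tested Wnt inhibitors and turnover genes none was called with 6 libraries by edgeR. At an unadjusted p under 0.05, 2 were lower and 0 higher, against 11.1% and 11.9% of all tested genes. Without cKO replicate 3, 4 of 9 fell, against 14.9% of all tested genes. These were the secreted inhibitor genes Sfrp2 (-1.42), Sfrp5 (-2.89) and Wif1 (-1.55), the last named after its values were seen, and the Dishevelled-binding gene Dact2 (-0.63). Of 14 tested genes of the Wnt calcium arm, Plcb3, a phospholipase C gene, fell by 0.92 (SE 0.156, edgeR adjusted p = 0.0206), and Ppp3ca, a catalytic calcineurin subunit gene, rose by 0.72 (SE 0.14, adjusted p = 0.0327). In the test without cKO replicate 3, 2 of 14 genes of this arm fell and 3 rose, against 14.9% and 13.7% of all tested genes. Beside Plcb3 and Ppp3ca, Nfatc1, a transcription factor gene downstream of calcineurin, fell by 2.54 (edgeR adjusted p = 0.000366). The calcium-dependent kinase genes Camk2g and Camk2b, the last named after its values were seen, rose by 0.73 and 1.37 (adjusted p = 0.0112 and 0.00622). Camk2b had 26.8, 14.5 and 4.58 CPM in cKO, against 8.63, 9.03 and 6.15 CPM in controls, so the excluded library lay below the controls. With 6 libraries Camk2g and Camk2b were not called (0.74 and 0.95, edgeR adjusted p = 0.0749 and 0.466). The calls of Plcb3 and Ppp3ca were lost without other libraries (highest adjusted p = 0.11 and 0.162).

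The genes whose profile over the 6 libraries was closest to that of Dvl2, the member with the smallest p, were Chadl, Rgs3, Thap11, Ring1 and Plagl2. The measure was the root mean square distance between log2 CPM profiles, each centred on its own mean, among 13046 other tested genes, and these 5 lay at distances of 0.136, 0.137, 0.165, 0.167 and 0.17. Among the members, Vangl2 was the closest to Dvl2 and stood in place 589, at a distance of 0.394. Ror2 stood in place 12340, at a distance of 2.03, with cKO replicate 3 at 0.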

How the data were processed

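Sorted ureteric bud cells of 3 cKO and 3 control samples at E16.5 were profiled by RNA-seq, from total RNA with a strand-preserving mRNA library kit, per the labels' protocols. The authors deposited raw read counts per gene and FPKM values, each for 17189 genes and 6 libraries. Per the submitters' processing notes, the tools were HISAT2, HTSeq, Cufflinks and DESeq and the build was GRCm39; which tool did what, and its version, is not stated. The deposited FPKM values equal the counts times 1 factor per gene and 1 per library (largest relative spread 3.42e-07), so they are no independent measurement. Counts were tested with edgeR 4.0.16 in R 4.3.3: filterByExpr (13047 genes), TMM factors, robust quasi-likelihood F-test with group as the only term, Benjamini-Hochberg adjustment over all tested genes, and a call at adjusted p under 0.05. The SE is the size of the log2 fold change divided by the square root of F. DESeq2 1.42.0 and limma 3.58.1 were alternatives. The steps were tested on simulated data. The labels call the libraries biological replicates but do not say whether they come from separate embryos, so p-values cover only the variation among these libraries, which may be technical. No pair of replicates looked like a library deposited again (chi-square of 9.90 to 71.7 for each degree of freedom).

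The members and lists were chosen with earlier results of these data known. Named genes are all 10 members, Ash2l, the 4 genes with the smallest 6-library p of each list and of the other annotated planar polarity genes, and the 5 genes closest to the member with the smallest p. Others are said to have been named after their values were seen. Intervals and floors cover counting error only.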

Additional observations from a re-analysis of the deposited data

How the results depend on the processing

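With 6 libraries edgeR called 469 genes down and 459 up. These were 1020 and 1029 with DESeq2, 1756 and 1607 with limma-voom and library weights, and 709 and 696 with limma on log2(FPKM + 1). Leaving out 1 library at a time gave 59 to 2032 down and 62 to 1865 up, with the lowest numbers without control replicate 3 and the highest without cKO replicate 3. Of the members, 0 fell with 6 libraries, 2 with DESeq2, 3 with limma-voom and library weights, 1 with limma on log2(FPKM + 1) and 1 on log2(FPKM + 0.1), and 0 to 3 with 1 library left out, 3 only without cKO replicate 3. No member rose under any of the 15 alternatives.

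Of the 72 other pathway genes tested with 6 libraries, 4 fell and 1 rose, against 3.59% and 3.52% of all tested genes. With DESeq2 12 fell and 2 rose, against 7.83% and 7.9% of the genes with an adjusted p. With limma-voom and library weights 17 fell and 5 rose, against 13.5% and 12.3% of all tested genes. With the stricter filter (10 counts in 5 libraries) 2 fell. With limma on log2(FPKM + 1) 8 fell (7 without a filter). On log2(FPKM + 1), with or without a filter, and log2(FPKM + 0.1) 0 rose. Leaving out 1 library gave 1 to 19 that fell and 0 to 4 that rose. Among the 43 genes run under these alternatives, those whose log2 fold change changed sign were Vangl1 (-0.034 to 0.48 with 1 library left out), Celsr2 (-0.43 to 0.55), Ryk (-0.042 to 0.95), Daam1 (-0.13 to 0.41) and Fjx1 (-0.036 to 0.20), each negative only without cKO replicate 3, and Celsr2 (-0.37), Daam1 (-0.11) and Fjx1 (-0.014) with limma-voom and library weights. Over all genes of the pathway lists tested both ways, 13 of 72 changed sign without cKO replicate 3, none of them called in either test. The cause of these changes was not tested. The paralog shares kept their direction under each alternative run, with differences of 9.97 to 17.6 points for Vangl1, 1.06 to 9.52 for Celsr1 and 2.04 to 3.24 for Prickle1 with 1 library left out.

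With the replicate number as a block, 11 genes fell and 12 rose, no member was called, and 1 other pathway gene fell and 0 rose. The correlations of deviations of equally numbered libraries were -0.022, 0.025 and -0.0015, and those of unequally numbered libraries ranged from -0.0327 to 0.0321. These values gave no sign of pairs, but with 3 libraries per group, 1 of them apart, they cannot exclude pairs. At these depths Prickle2, with 0 to 15 counts, and Dchs1 cannot give a firm fold change.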

Other observations

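In the deposited annotation, 60 genes carry a term with planar polarity or planar cell polarity in its name. They include 5 of the 10 members (Vangl2, Celsr1, Ror2, Ryk and Dvl2) and 32 genes outside the members and the pathway lists. Of the 29 of these tested, 1 rose and 0 fell with 6 libraries (edgeR), against 3.52% and 3.59% of all tested genes, while at an unadjusted p under 0.05, 7 were higher and 1 was lower. Over all tested genes 11.9% were higher and 11.1% lower by that measure. Without cKO replicate 3, 6 of 29 rose and 4 fell, against 13.7% and 14.9% of all tested genes.

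Gpc3, a glypican that binds Wnt proteins at the cell surface, had 1330, 1406 and 1786 CPM in cKO, against 750, 652 and 806 CPM in controls. It rose by 1.03 on the log2 scale (SE 0.142, edgeR adjusted p = 0.0115), was called in 3 of the 6 tests that each left out 1 library, and had a highest adjusted p of 0.0666. Mks1 and Ift20, genes of the primary cilium, were not called with 6 libraries (0.67 and 0.79, edgeR adjusted p = 0.0805 and 0.0825) and rose without cKO replicate 3 (adjusted p = 0.0255 and 0.0213). Sapcd2, a gene of spindle orientation, had 24.6, 19.6 and 8.86 CPM in cKO, against 62.3, 44.6 and 53.0 CPM in controls, and was not called with 6 libraries (-1.59, edgeR adjusted p = 0.0608). It fell without cKO replicate 3 (-1.28, adjusted p = 0.000434), the only 1 of the 6 tests that each left out 1 library to call it. Cthrc1, whose secreted product is known in mice to stabilise the WNT5A and ROR2 complex, was named after its values were seen. It had 36.0, 39.1 and 42.3 CPM in cKO, against 21.3, 12.4 and 23.0 CPM in controls. Every cKO library lay above every control, as for 8 of these 29 genes and 16.7% of all tested genes. With 6 libraries Cthrc1 differed by 1.05 on the log2 scale (SE 0.292, edgeR adjusted p = 0.0841). It rose by 0.98 without cKO replicate 3 (adjusted p = 0.0101), the only 1 of the 6 tests that each left out 1 library to call it (highest adjusted p = 0.225).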
